A study of Homo sapiens with 12 samples.

Results

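The genes described here are 29 enzymes and regulators of cholesterol and fatty acid synthesis, measured by RNA-seq in HaCaT cells, an immortalised human skin keratinocyte line. They were taken by symbol from a list of pathway genes, which was chosen with earlier results of these data known. All 29 were among the 16271 genes of the deposited table. All 29 passed the filter on low counts, with 40 to 3334 counts per library. The cells were wild type or carried a knockout of VDR, the nuclear receptor for vitamin D, and each genotype was left untreated or was given 1,25(OH)2D3, the active hormone, for 8 h. Each of these 4 groups had 3 libraries, and all of the cells were grown in DMEM with 10% fetal bovine serum. The sources used here do not state the hormone's dose, its vehicle, the kind of edit or how many knockout clones were used.

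Cells build cholesterol from acetyl-CoA through mevalonate and farnesyl diphosphate to squalene, which is closed to lanosterol and trimmed in a chain of reactions to cholesterol. Fatty acids start from the same acetyl-CoA, which is carboxylated, built into chains by fatty acid synthase, and then lengthened and desaturated. Transcription of both branches is driven by the SREBP factors, encoded by SREBF1 and SREBF2, which INSIG1 helps to hold in the endoplasmic reticulum when sterol is plentiful. In skin, keratinocytes make their own sterols and fatty acids for the permeability barrier, and 7-dehydrocholesterol, the substrate that DHCR7 turns into cholesterol, is also the precursor from which light makes vitamin D.

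Libraries held 11485031 to 15992792 counts. CYP24A1, the textbook target of the receptor, rose from a mean of 48.0 to 1676 CPM (counts per 1000000 counts of the library) with the hormone in wild type cells and stood at 16.9 and 12.2 CPM in knockout cells, while RNA of VDR itself was counted in all 12 libraries. All CPM values here are scaled by the TMM method. Untreated wild type replicate 3 stood apart on the first 2 principal components, and its summed level of 15 keratinocyte markers was 5028 CPM against 6190 and 6263 CPM in its group, so results that rest on it are given without it too. That marker sum was 5598 to 5807 CPM in treated wild type libraries, 2249 to 2279 CPM in untreated knockout libraries and 1975 to 2180 CPM in treated ones. Of the defining markers of other cell types, 3 of 6 for fibroblasts, 2 of 5 for melanocytes, 1 of 4 for endothelium and 1 of 4 for immune cells were analysed here, and none of 5 for sebocytes or adipocytes. Summed levels were 1.96 to 20.6 CPM for the fibroblast markers, highest in untreated wild type replicate 3, and 6.68 to 10.9 CPM in wild type against 15.1 to 21.5 CPM in knockout libraries for the melanocyte markers, and COL3A1 had 0 counts in at least 1 treated knockout library. The labels place the replicates in a 6-well plate, so the p-values rest on the spread among these libraries, and that spread may be technical. In RNA from whole cultures, fewer cells of a type and less RNA per cell cannot be told apart.

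Levels of the 29 genes spanned a wide range. The scale for setting one gene beside another was CPM per kb of annotated exon, which 28 of them had, since the identifier of ACACA is not in GENCODE v29. In untreated wild type cells ACLY, which makes cytosolic acetyl-CoA from citrate, and NSDHL, an enzyme of sterol demethylation, were highest at 28.8 ± 1.16 and 28.5 ± 2.88 CPM per kb (SD, n = 3), levels that did not differ beyond their spread. SREBF2 at 19.3 ± 0.641 and EBP at 18.5 ± 3.33 CPM per kb came next and overlapped in spread. The lowest were the sterol carrier gene STARD4 at 1.83 ± 0.395 and HSD17B7 at 1.02 ± 0.257 CPM per kb. In treated wild type cells EBP led at 28.6 ± 0.767, level with ACLY at 28.4 ± 0.622 CPM per kb. In untreated knockout cells NSDHL, FDPS and MSMO1 led, at 23.4 ± 1.83, 20.7 ± 0.669 and 20.0 ± 1.56 CPM per kb. INSIG1 at 2.55 ± 0.222 and HSD17B7 at 2.66 ± 0.328 CPM per kb were lowest there and overlapped in spread. As a share of all counts, the 29 genes together took 0.171 to 0.182% in wild type libraries and 0.152 to 0.164% in knockout libraries, given here without a test.

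**Figure D1:**
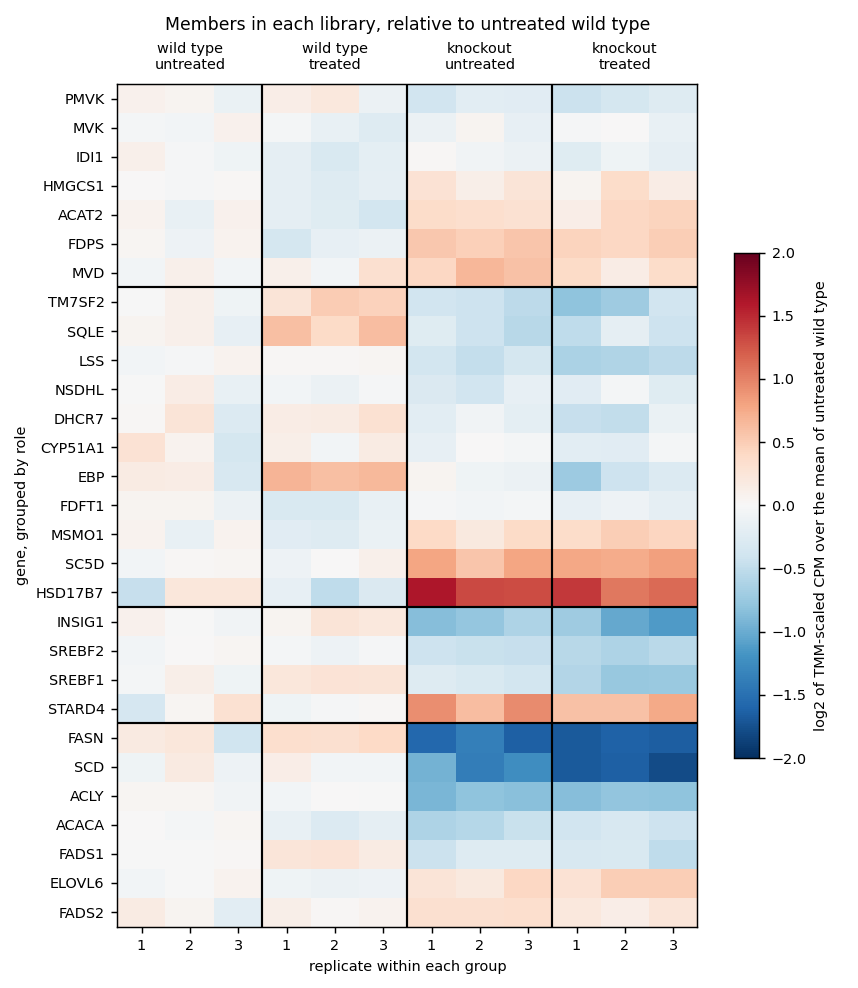
Each cell of the map is the log2 of 1 gene's TMM-scaled CPM in 1 library over its mean in untreated wild type cells, with genes in rows grouped by role (mevalonate, squalene to sterol, regulation and transport, fatty acid) and the 12 libraries in columns. The knockout libraries hold both the deepest blue, in FASN and SCD, and the deepest red, in HSD17B7, and wild type treatment shows as a red patch in EBP, SQLE and TM7SF2.

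The effect of the hormone was compared first with the receptor present. In wild type cells it raised 5 and lowered 2 of the 29, against 11.5% and 13% of all genes tested (edgeR quasi-likelihood, Benjamini-Hochberg adjusted p below 0.05), so the share called, 7 of 29, was near the 24.5% called among all genes. The median log2 fold change was 0.00 over the 29 genes and -0.00 over all genes. Those that rose were 3 enzymes of the sterol branch (EBP, SQLE and TM7SF2), the regulator SREBF1 and the desaturase FADS1, by 1.17 to 1.55-fold. Those that fell were FDFT1 and ACACA. Counted without a test, 6 of the 29 had all treated libraries above all untreated ones and 7 had all below, against 19.9% and 19.4% of all genes. Of the 7 genes of the mevalonate steps 0 passed in edgeR's test or in DESeq2. At an unadjusted p below 0.05, 4 of the 7 were lower and 0 higher, and 7 of the 29 were lower and 6 higher, against 19.2% and 17.7% of all genes. The keratinocyte markers moved too, with 5 of 15 higher and 2 lower, and CD68 rose by 0.58 ± 0.16 on the log2 scale. Their part in the result was not tested.

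EBP, the isomerase that moves the double bond of the sterol ring, stood at 49.5, 48.9 and 35.3 CPM in untreated and 70.5, 66.9 and 69.3 CPM in treated wild type libraries. All 3 treated libraries were above all 3 untreated ones, of which the lowest was replicate 3. The log2 fold change was 0.63 ± 0.12 (SE, adjusted p = 0.00183, edgeR quasi-likelihood), and it was 0.49 ± 0.10 without that library (adjusted p = 0.00121). SQLE, squalene epoxidase, a rate-limiting step of the pathway, went from 32.4, 33.8 and 28.1 to 47.6, 41.0 and 48.3 CPM. The groups did not overlap, and the log2 fold change was 0.54 ± 0.11 (adjusted p = 0.00229). TM7SF2, a sterol reductase that acts after lanosterol is demethylated, went from 13.8, 14.9 and 13.1 to 16.6, 19.8 and 19.1 CPM. Again no treated library fell within the untreated range (log2 fold change 0.41 ± 0.12, adjusted p = 0.0199), but without treated replicate 2 or 3 the adjusted p was above the threshold, at up to 0.0752.

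SREBF1, whose SREBP-1 products favour fatty acid genes, rose from 124, 139 and 119.8 to 149, 153 and 153 CPM. The treated libraries lay close together and above all untreated ones, with a log2 fold change of 0.25 ± 0.07 (adjusted p = 0.0192, edgeR quasi-likelihood). This call was lost without treated replicate 3 and with the 2 compared groups alone, at an adjusted p of up to 0.0592. SREBF2, whose SREBP-2 product favours sterol genes, was at 140.2, 147 and 149.6 CPM untreated and 142, 135 and 142 CPM treated. Its groups overlapped, and its log2 fold change of -0.06 ± 0.06 did not pass (adjusted p = 0.54). INSIG1 was at 16.5, 15.4 and 14.9 CPM untreated and 16.2, 18.7 and 18.0 CPM treated, an overlap too, and 0.18 ± 0.12 did not pass (adjusted p = 0.29). STARD4 had a log2 fold change of -0.05 ± 0.14.

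FADS1, a desaturase of polyunsaturated fatty acids, went from 52.4, 52.2 and 53.7 to 62.2, 63.9 and 59.2 CPM without overlap (log2 fold change 0.23 ± 0.08, adjusted p = 0.0405, edgeR quasi-likelihood). FDFT1, squalene synthase, which commits farnesyl diphosphate to sterols, fell from 83.4, 83.5 and 73.8 to 64.7, 64.7 and 72.2 CPM. The groups did not overlap, with treated replicate 3 just under untreated replicate 3, and the log2 fold change was -0.25 ± 0.07 (adjusted p = 0.0176). ACACA, acetyl-CoA carboxylase, which commits acetyl-CoA to fatty acids, fell by 0.20 ± 0.07 on the log2 scale (adjusted p = 0.0451). These 3 calls were the least stable. FADS1 was called in 8 of 14 alternative analyses, FDFT1 in 9 and ACACA in 4. The last was lost when any 1 wild type library was left out, and FADS1 and FDFT1 were both lost without untreated replicate 1 or 2 or treated replicate 1 or 2.

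The remaining genes did not pass in wild type cells. DHCR7, at the branch to vitamin D, was at 31.0, 36.4 and 25.2 CPM untreated and 33.7, 34.2 and 37.5 CPM treated. Its groups overlapped (0.19 ± 0.12, adjusted p = 0.278, edgeR quasi-likelihood), and without untreated replicate 3 the value was 0.07 ± 0.11. FASN, fatty acid synthase, was at 174, 179 and 116 CPM untreated and 194, 191 and 202 CPM treated. All treated libraries were above all untreated ones, and replicate 3 was again the low one. The value of 0.32 ± 0.12 did not pass (adjusted p = 0.0704), was called in 3 of 14 alternative analyses, and was 0.16 ± 0.07 without that library (adjusted p = 0.114). Of the mevalonate genes, HMGCS1, which makes HMG-CoA, ACAT2, IDI1 and FDPS had log2 fold changes of -0.21, -0.26, -0.22 and -0.21 with adjusted p from 0.0581 to 0.081 (edgeR quasi-likelihood), and none was called. Leaving out 1 untreated library brought calls of lower genes, IDI1 without replicate 3, ACAT2, FDPS and MSMO1 without replicate 2, and HSD17B7 without replicate 1. MVK, PMVK and MVD were at -0.15, 0.08 and 0.13. Among later sterol enzymes LSS, CYP51A1, MSMO1, NSDHL, HSD17B7 and SC5D ranged from -0.34 to 0.06, and SCD, FADS2, ELOVL6 and ACLY from -0.10 to 0.06.

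Promoters of 3 genes that rose are shown because they differ in the motifs that SREBP-driven genes often carry. RefSeq (GRCh38.p14) gave windows of 250 bases before to 50 after a start for 25 of the 29 genes, 34 windows in all. The NF-Y box (CCAAT or its complement ATTGG), which binds a common partner of SREBP, was in 24 of these 34 windows (70.6%), against 34.6% of all 35116 windows and 34.9% of the 13366 windows of tested genes. The sterol regulatory element core (TCACNCCAC on either strand) was in 1, that of SREBF2 (2.94%, against 1.13% of all windows and 1.05% of those of tested genes). The E-box CACGTG was in 4 windows, of INSIG1, LSS and SC5D (11.8%, against 7.26% of all windows and 9.2% of those of tested genes). SC5D counts there through overlapping windows that hold the same site. A pair of AGGTCA sites with 3 bases between, the arrangement that the vitamin D receptor is known for, was in none of the 34 (0.0057% of all windows). This exact string was in 2 of all 35116 windows and in 0 of the 13366 windows of tested genes. It is too rare for its absence from the 34 to say anything about them. All motifs were searched on both strands, and no match of 1 motif overlapped a match of another in these windows. A match is no measured site, and no match says only that the letters are not in the window. Below are the bases before the start for 3 genes that rose with the hormone and, for contrast, SREBF2, each 5′ to 3′ on the gene's strand, with NF-Y boxes and the sterol element core in capitals. EBP (chrX:48521558-48521807, plus strand) holds 3 NF-Y boxes, TM7SF2 (chr11:65111622-65111871, plus strand) holds 1, SREBF1 (chr17:17836987-17837236, minus strand) has no match to any of these motifs, and SREBF2 (chr22:41832855-41833104, plus strand) holds 1 NF-Y box beside the sterol element core.
EBP: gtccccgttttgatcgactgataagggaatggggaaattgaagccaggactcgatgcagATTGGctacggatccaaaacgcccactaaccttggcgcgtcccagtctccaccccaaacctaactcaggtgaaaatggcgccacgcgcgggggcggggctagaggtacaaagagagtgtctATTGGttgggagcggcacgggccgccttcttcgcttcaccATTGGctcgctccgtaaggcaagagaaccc
TM7SF2: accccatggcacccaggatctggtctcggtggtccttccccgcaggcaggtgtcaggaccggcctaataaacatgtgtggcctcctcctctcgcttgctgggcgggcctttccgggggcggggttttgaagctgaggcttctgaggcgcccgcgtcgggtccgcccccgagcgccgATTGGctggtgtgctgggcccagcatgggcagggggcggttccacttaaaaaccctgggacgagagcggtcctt
SREBF1: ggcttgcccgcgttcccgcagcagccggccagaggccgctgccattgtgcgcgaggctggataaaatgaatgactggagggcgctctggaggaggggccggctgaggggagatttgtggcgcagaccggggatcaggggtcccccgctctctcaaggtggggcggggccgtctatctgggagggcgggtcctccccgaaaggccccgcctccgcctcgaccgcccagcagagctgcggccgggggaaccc
SREBF2: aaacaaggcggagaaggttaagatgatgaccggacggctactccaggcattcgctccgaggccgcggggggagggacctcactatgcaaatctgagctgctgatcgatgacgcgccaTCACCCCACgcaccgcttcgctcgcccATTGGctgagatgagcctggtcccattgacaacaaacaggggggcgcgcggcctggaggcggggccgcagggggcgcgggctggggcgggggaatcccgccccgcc

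**Figure D2:**
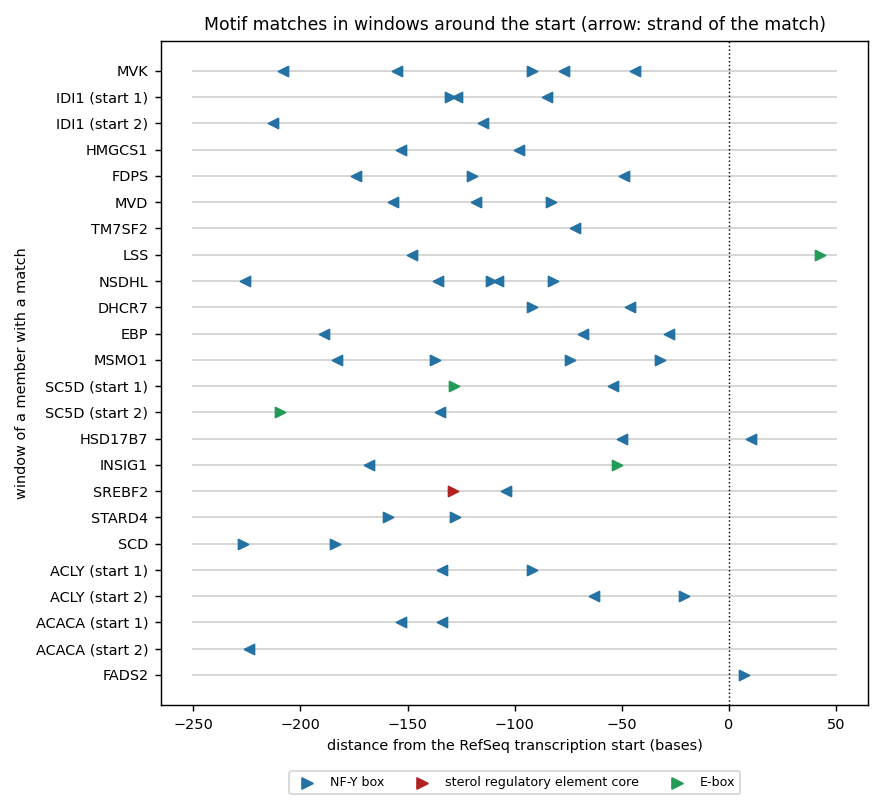
Each line is 1 promoter window of a gene with a match, drawn by distance from the RefSeq start in bases, and arrows mark NF-Y boxes, the sterol regulatory element core and E-boxes with their strand. Most NF-Y boxes lie between the start and 250 bases before it, MVK and NSDHL hold 5 each, and the 1 sterol element core is in SREBF2.

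In knockout cells the same treatment lowered 2 of the 29 genes, SREBF1 and SCD, and raised 0, against 1.64% and 0.913% of all genes tested (edgeR quasi-likelihood, adjusted p below 0.05). At an unadjusted p below 0.05 there was 1 higher, ACACA, and 6 lower, against 9.96% and 11.4% of all genes, and DESeq2 also called 0 higher. The number of calls among all genes varied many-fold between analyses. It was 134 higher and 240 lower here, 399 and 508 in DESeq2, 833 and 942 with the 2 groups alone, 0 and 14 without untreated replicate 1, and 1 and 8 without treated replicate 2. In 1 of the 29 all treated libraries were above, and in 8 below, all untreated ones, against 15.7% and 15.9% of all genes. SREBF1 went from 106, 103 and 99.1 CPM to 84.7, 75.4 and 76.5 CPM. All treated libraries were below all untreated ones (log2 fold change -0.38 ± 0.07, adjusted p = 0.0159). SCD, the desaturase that makes monounsaturated fatty acids, went from 22.1, 16.3 and 18.0 to 13.3, 13.7 and 12.2 CPM, again without overlap (-0.53 ± 0.12, adjusted p = 0.0336). Neither call held in all analyses. Without untreated replicate 1, or treated replicate 2 or 3, 0 genes were called, and without untreated replicate 3 or treated replicate 1 SCD was lost. The median log2 fold change of the 29 genes was -0.11, against -0.00 for all genes, and 21 of the 29 values were below 0.

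EBP was at 45.7, 41.4 and 40.5 CPM in untreated and 26.5, 33.0 and 36.4 CPM in treated knockout libraries. Its groups did not overlap, yet -0.41 ± 0.12 did not pass (adjusted p = 0.0791, edgeR quasi-likelihood), while DESeq2 and a fit of the 2 groups alone called it lower. SQLE and TM7SF2 had log2 fold changes of 0.05 ± 0.11 and -0.19 ± 0.13, DHCR7 and INSIG1 -0.19 ± 0.12 and -0.20 ± 0.13, and SREBF2 -0.14 ± 0.06, none of which passed (adjusted p from 0.223 to 0.846). The keratinocyte markers moved with this comparison as well. In treated knockout cells 3 of 15 were lower and none higher, beside 1.64% and 0.913% of all genes. The 3 were KRT14, KRT5 and KRT6A. The markers' part in the result was not tested.

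**Figure D3:**
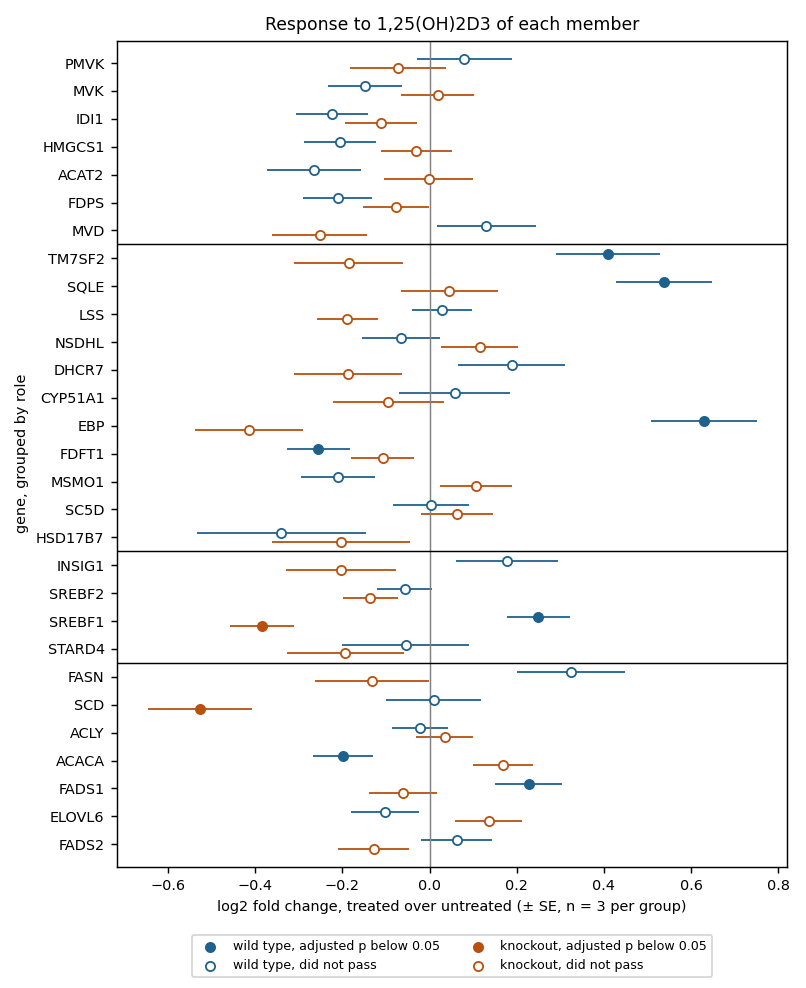
Points are log2 fold changes, treated over untreated, with bars of 1 SE, in wild type (blue) and knockout cells (orange) for each gene, and filled points passed the test. EBP, SQLE, TM7SF2, SREBF1 and FADS1 are filled to the right in wild type cells, and the 2 filled knockout points, SREBF1 and SCD, lie to the left.

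Whether the response differed between genotypes was tested directly, as the knockout response minus the wild type response. Of the 29 genes, 5 had a lower response in knockout cells and 1 a higher one, against 12.5% and 13.8% of all genes tested (edgeR quasi-likelihood, adjusted p below 0.05), or 6 of 29 against 26.3% in either direction. The 5 were the sterol enzymes EBP, TM7SF2 and SQLE, the regulator SREBF1 and the fatty acid desaturase SCD, and the 1 was ACACA. EBP had the largest difference, -1.04 ± 0.17 on the log2 scale (adjusted p = 0.000671), as wild type cells rose from a mean of 44.6 to 68.9 CPM and knockout cells went from 42.6 to 32.0 CPM. SREBF1 differed by -0.63 ± 0.10 (adjusted p = 0.000509), rising from 128 to 152 CPM in wild type cells and falling from 103 to 78.9 CPM in knockout cells. These differences, and that of ACACA, were called in all 19 alternative analyses.

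TM7SF2 differed by -0.59 ± 0.17 (adjusted p = 0.0185, edgeR quasi-likelihood) and SQLE by -0.49 ± 0.16 (adjusted p = 0.0285). Beside their rise in wild type cells, the knockout means without and with the hormone were 10.3 and 9.04 CPM for TM7SF2 and 23.7 and 24.5 CPM for SQLE. SCD differed by -0.54 ± 0.16 (adjusted p = 0.0226) with means of 42.5 and 42.8 CPM in wild type and 18.8 and 13.1 CPM in knockout cells. ACACA went the other way, from 272 to 237 CPM in wild type and from 187 to 210.4 CPM in knockout cells (0.37 ± 0.10, adjusted p = 0.0115). DHCR7 (-0.38 ± 0.17, adjusted p = 0.121), INSIG1 (-0.38 ± 0.17, adjusted p = 0.114) and SREBF2 (-0.08 ± 0.09) did not pass. Of 19 alternative analyses, DHCR7 was called in 2, without untreated wild type replicate 2 or treated knockout replicate 3, and INSIG1 in 1, without treated knockout replicate 1. The other 3 calls were lost without single libraries. TM7SF2 was lost without treated knockout replicate 1 or 2. SCD and SQLE were both lost without treated wild type replicate 1, untreated knockout replicate 1 or treated knockout replicate 3, and SQLE also without treated wild type replicate 3 or treated knockout replicate 1. Without untreated wild type replicate 3 the lower responses numbered 8, with FADS1, FASN and LSS added. FASN was also called lower with library size alone, with limma, and without untreated wild type replicate 1 or 2. FADS1 was also called with a stricter filter on low counts or without untreated knockout replicate 1. MVD was called without treated wild type replicate 2. Of the 15 keratinocyte markers, 6 had a lower and 2 a higher response in knockout cells, beside 12.5% and 13.8% of all genes. The markers' part in these differences was not tested.

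**Figure D4:**
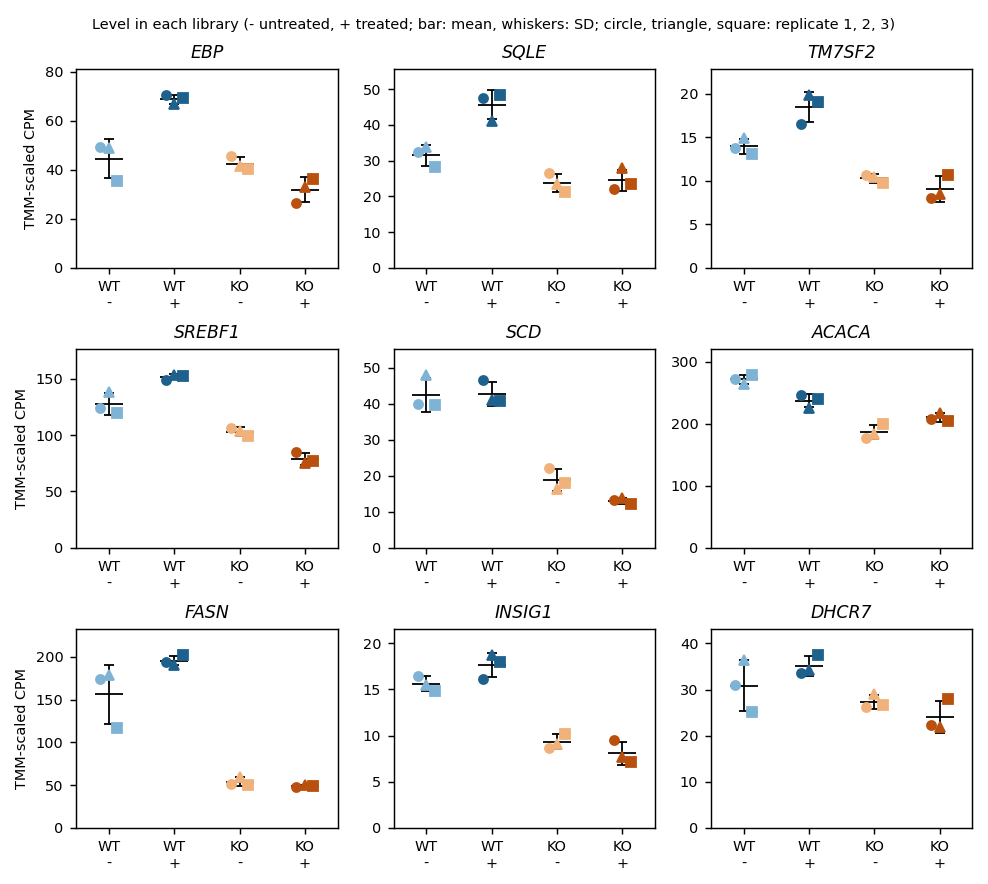
Each panel gives 1 gene's TMM-scaled CPM in the 12 libraries, with a bar at the group mean and whiskers of 1 SD (n = 3), in untreated and treated wild type (blue) and knockout cells (orange). EBP parts after treatment, at 68.9 CPM in wild type and 32.0 CPM in knockout cells, whereas FASN and SCD are lower in knockout cells with and without the hormone.

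With the number of knockout clones not stated, effects of VDR loss and of other differences between the cell lines cannot be told apart. Knockout and wild type cells were compared without the hormone. Here 10 of the 29 genes were higher and 13 lower in knockout cells, against 35.5% and 34.2% of all genes tested (edgeR quasi-likelihood, adjusted p below 0.05), so 23 of 29 stood beside a background of 69.7%. All 23 had groups that did not overlap, against 35.7% of all genes higher and 33.5% lower by that count. The 3 largest falls, in FASN, SCD and ACLY, were in the fatty acid branch, and the 3 largest rises were in HSD17B7, STARD4 and SC5D. With the hormone, 8 were higher and 14 lower, against 38.4% and 37.4%, a total of 22 of 29 near the background of 75.9%. Groups did not overlap for 9 higher and 14 lower genes there, against 41.1% and 39.8%. Scaling by library size alone put the median log2 fold change of all genes at 0.13 in both comparisons, from 0.01 and 0.02. It gave 10 higher and 11 lower calls untreated and 11 and 13 treated, and limma gave 12 and 13 treated. The higher calls added in treated cells were FADS2, FDFT1 and MVD in both, and MVK in limma. Library size turned no called gene around, though the uncalled values of MVK, IDI1, FDFT1, CYP51A1 and EBP (untreated) and NSDHL (treated) changed sign.

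In the fatty acid branch, 5 of 7 genes were lower in knockout cells in both comparisons, against 34.2% of all genes untreated and 37.4% treated. FASN was at 174, 179 and 116 CPM in untreated wild type and 51.5, 59.7 and 49.8 CPM in untreated knockout libraries. Even its lowest wild type library was well above the highest knockout one, and the log2 fold change was -1.54 ± 0.13 (adjusted p = 7.78e-08, edgeR quasi-likelihood), or -1.72 ± 0.07 without untreated wild type replicate 3. With the hormone the libraries were at 194, 191 and 202 CPM in wild type and 47.8, 50.2 and 48.8 CPM in knockout cells, lower in every library (-2.002 ± 0.13, adjusted p = 3.81e-09). SCD was at 40.1, 48.0 and 39.6 CPM in untreated wild type against 22.1, 16.3 and 18.0 CPM in knockout libraries. It too was lower in every knockout library (-1.18 ± 0.11, adjusted p = 9.72e-08), and with the hormone it was at 46.6, 41.0 and 40.9 against 13.3, 13.7 and 12.2 CPM (-1.71 ± 0.12, adjusted p = 1.15e-09).

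ACLY was at 154, 154 and 143 CPM in untreated wild type and 79.4, 86.3 and 83.7 CPM in untreated knockout libraries. The hormone left this gap in place, with 144, 151 and 149 CPM against 82.8, 86.9 and 85.9 CPM. No libraries overlapped, and the log2 fold changes were -0.85 ± 0.07 (adjusted p = 5.98e-09, edgeR quasi-likelihood) and -0.80 ± 0.07 (adjusted p = 8.48e-09). ACACA was at 273, 265 and 278 CPM in untreated wild type and 178, 183 and 200.2 CPM in knockout libraries (-0.54 ± 0.07, adjusted p = 2.83e-06). With the hormone its difference was -0.17 ± 0.07 (adjusted p = 0.0329, edgeR quasi-likelihood), a call lost in 6 of 14 alternative analyses. These were library size alone, limma, and the fits without treated wild type or treated knockout replicate 1 or 3. FADS1 was lower too, with -0.31 ± 0.08 untreated and -0.60 ± 0.08 treated. The elongase ELOVL6 and the desaturase FADS2 went against the branch. ELOVL6 was higher by 0.29 ± 0.08 untreated and 0.53 ± 0.08 treated, and FADS2 by 0.32 ± 0.08 untreated, while 0.13 ± 0.08 with the hormone did not pass.

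Of the 4 genes of sterol sensing, regulation and transport, 3 were lower and 1 higher in knockout cells in both comparisons. Among all genes 34.2% were lower and 35.5% higher untreated, and 37.4% and 38.4% treated. SREBF1 was at 124, 139 and 119.8 CPM in untreated wild type and 106, 103 and 99.1 CPM in untreated knockout libraries, a difference of -0.31 ± 0.07 (adjusted p = 0.00117, edgeR quasi-likelihood). With the hormone it was at 149, 153 and 153 against 84.7, 75.4 and 76.5 CPM, and the difference was -0.94 ± 0.07 (adjusted p = 4.66e-09). The lowest wild type library was above the highest knockout one each time. SREBF2 was at 140.2, 147 and 149.6 against 109.7, 107 and 106 CPM untreated, and 142, 135 and 142 against 98.7, 95.4 and 99.8 CPM treated. Its differences, -0.44 ± 0.06 (adjusted p = 9.68e-06) and -0.51 ± 0.06 (adjusted p = 1.09e-06), were alike in size. INSIG1 was at 16.5, 15.4 and 14.9 against 8.63, 9.08 and 10.2 CPM untreated, and 16.2, 18.7 and 18.0 against 9.49, 7.63 and 7.13 CPM treated. Knockout libraries were all lower, by -0.74 ± 0.12 (adjusted p = 3.77e-05) and -1.12 ± 0.12 (adjusted p = 2.89e-07). STARD4, which carries sterol between membranes, was the exception, higher in knockout cells by 0.81 ± 0.14 and 0.68 ± 0.14.

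Of the 11 genes from squalene to cholesterol, 3 were higher and 4 lower in untreated knockout cells, and 3 and 5 in treated ones, beside 35.5% and 34.2% of all genes untreated and 38.4% and 37.4% treated. SQLE and LSS, which make and close the squalene epoxide, were lower in untreated knockout cells (-0.41 ± 0.11 and -0.40 ± 0.07), as were TM7SF2 (-0.44 ± 0.12) and NSDHL (-0.28 ± 0.09). MSMO1, the methyl oxidase that works beside NSDHL, was higher (0.32 ± 0.08). SC5D, which puts the last double bond into 7-dehydrocholesterol, was at 28.4, 30.1 and 30.3 CPM in wild type and 51.2, 43.3 and 51.3 CPM in knockout libraries. It was higher in every knockout library (0.72 ± 0.09, adjusted p = 1.17e-06, edgeR quasi-likelihood), and with the hormone it was at 27.5, 29.7 and 31.7 against 50.3, 49.7 and 52.4 CPM (0.78 ± 0.09, adjusted p = 2.97e-07). With the hormone SQLE, LSS, TM7SF2 and MSMO1 differed by -0.90, -0.61, -1.03 and 0.64, and NSDHL by -0.10 ± 0.09, which did not pass. FDFT1 and CYP51A1 passed in neither comparison, with values from -0.24 to 0.10, though CYP51A1 was called lower in untreated knockout cells without wild type replicate 3 (-0.25 ± 0.10). In treated cells FDFT1 was called higher with library size alone (0.21 ± 0.07) and with limma, and CYP51A1 lower with the compared groups alone.

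EBP and DHCR7 passed in the treated comparison and not in the untreated one, and whether the genotype gap changed with treatment is the difference of responses given above, which EBP passed and DHCR7 did not. Without the hormone EBP differed by -0.07 ± 0.12 and its groups overlapped, and with it the 70.5, 66.9 and 69.3 CPM of wild type stood against 26.5, 33.0 and 36.4 CPM in knockout libraries (-1.11 ± 0.12, adjusted p = 5.66e-07, edgeR quasi-likelihood). Leaving out untreated wild type replicate 3 made the untreated difference -0.21 ± 0.10 (adjusted p = 0.0596). DHCR7 was at 31.0, 36.4 and 25.2 against 26.2, 29.1 and 26.7 CPM untreated, and 33.7, 34.2 and 37.5 against 22.2, 21.8 and 28.0 CPM treated. The untreated groups overlapped and the treated ones did not (-0.55 ± 0.12, adjusted p = 0.000626), and the untreated value of -0.17 ± 0.12 (adjusted p = 0.212) became -0.31 ± 0.11 without replicate 3 of wild type, a call (adjusted p = 0.0164).

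HSD17B7, a reductase of the demethylation steps, had the largest rise of the 29, but its counts are uncertain. It was at 3.45, 5.58 and 5.58 CPM in untreated wild type and 14.5, 11.9 and 11.7 CPM in untreated knockout libraries, with no overlap (1.38 ± 0.17, adjusted p = 2.12e-06, edgeR quasi-likelihood). With the hormone the difference was 1.52 ± 0.18. Its pseudogene copy HSD17B7P2, counted as a gene of its own, had more counts, 164 to 836 per library, and differed by 1.38 ± 0.16 and 1.66 ± 0.17. How the counting divided reads between the pair is not stated.

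Of the 7 mevalonate genes, 4 were higher and 1 lower in untreated knockout cells, against 35.5% and 34.2% of all genes, and 3 and 1 in treated ones, against 38.4% and 37.4%. ACAT2, the thiolase that joins acetyl-CoA units, HMGCS1 and FDPS, which makes farnesyl diphosphate, were higher without the hormone (0.34 ± 0.10, 0.23 ± 0.08 and 0.52 ± 0.08) and with it (0.60 ± 0.11, 0.40 ± 0.08 and 0.66 ± 0.08). FDPS, as an example, was at 54.8, 49.6 and 56.4 CPM in untreated wild type and 78.1, 74.1 and 78.7 CPM in untreated knockout libraries, which did not overlap. MVD was higher without the hormone (0.55 ± 0.11) and did not pass with it (0.17 ± 0.11). PMVK was lower, by -0.28 ± 0.11 and -0.43 ± 0.11, the first value being called in 7 of 14 alternative analyses. MVK and IDI1, with values from -0.08 to 0.09, passed in neither. Without untreated wild type replicate 2, ACAT2, HMGCS1, PMVK and, among the sterol genes, NSDHL were lost in the untreated comparison. NSDHL and PMVK were lost there too with library size alone (-0.16 and -0.15) and with limma, and PMVK with the compared groups alone. HMGCS1 and PMVK were also lost without untreated knockout replicate 1 or 3, and PMVK without untreated wild type replicate 1.

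**Figure D5:**
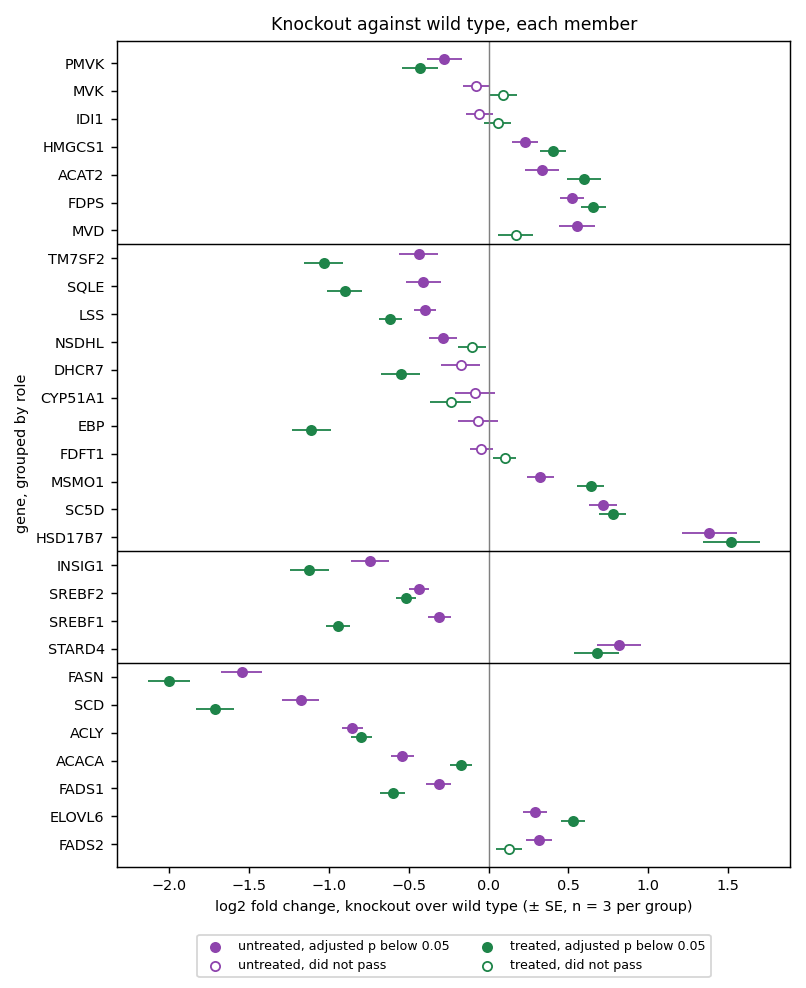
Points are log2 fold changes, knockout over wild type, with bars of 1 SE, without (purple) and with the hormone (green), and filled points passed the test. FASN and SCD lie farthest left, HSD17B7 farthest right, and EBP is near 0 untreated but at -1.11 treated.

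Keratinocyte markers moved with these genotype differences. By edgeR's test (adjusted p below 0.05), 12 of 15 keratinocyte markers were lower and 1, DSG3, higher in untreated knockout cells, and 13 and 1 in treated ones. Beside them, 34.2% of all genes were lower and 35.5% higher untreated, and 37.4% and 38.4% treated. The median of the marker list was -1.40 untreated and -1.68 treated on the log2 scale. The marker sums given above did not overlap between the genotypes. Of the genes listed as markers of other cell types, MITF was higher by 0.77 ± 0.13 untreated, while CD68 was at -1.02 ± 0.18. Neither value alone shows that another cell type was present in this keratinocyte line. The part of these changes in the sterol and fatty acid results was not tested.

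The wider pathway was tested in the same fit. Of 80 further genes listed for sterol sensing, isoprenoid synthesis, sterol transport and fatty acid activation, 67 were tested. By edgeR's quasi-likelihood test (adjusted p below 0.05), the hormone raised 5 and lowered 4 of them in wild type cells, beside 11.5% and 13% of all genes. Among them were the citrate carrier gene SLC25A1 (0.48 ± 0.12) and the ubiquitin ligase gene RNF139 (0.38 ± 0.12) on the higher side. The lower ones with the smallest adjusted p were LPIN1 (-0.40 ± 0.09), the mitochondrial thiolase gene ACAT1 (-0.28 ± 0.08) and GPAM, the first enzyme of glycerolipid synthesis (-0.35 ± 0.10). In knockout cells the 1 call among the 67 was a rise in the lipoprotein receptor gene LRP8 (0.39 ± 0.10, adjusted p = 0.046, edgeR quasi-likelihood). The response differed between genotypes in 7 genes each way, near the 13.8% and 12.5% of all genes. Among these were GPAM (0.70 ± 0.14), LRP8 (0.64 ± 0.13) and LPIN1 (0.54 ± 0.12) with a higher response in knockout cells, and SLC25A1 (-0.72 ± 0.17), FADS3 (-1.29 ± 0.35) and TECR, which closes each elongation cycle (-0.40 ± 0.13), with a lower one.

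Between genotypes, 24 of the 67 were higher and 27 lower in untreated knockout cells, and 22 and 29 in treated ones (edgeR quasi-likelihood, adjusted p below 0.05). These 51 of 67 in each comparison were near the 69.7% and 75.9% called among all genes. ACSS2, which makes acetyl-CoA from acetate (1.27 ± 0.09 untreated and 1.00 ± 0.09 treated), ME1, a source of NADPH (1.06 ± 0.10 and 1.43 ± 0.10), and ACAT1 (0.82 ± 0.08 and 1.13 ± 0.08) were higher. FASN, ACLY and SCD, described above, were lower in the same libraries. Lower without the hormone were AACS, which activates acetoacetate (-0.98 ± 0.08), LRP8 (-1.25 ± 0.10) and AGPAT2 (-1.26 ± 0.10), and lower with it were AGPAT2 (-1.37 ± 0.10) and the sterol transport genes STARD3 (-1.28 ± 0.09) and GRAMD1A (-1.28 ± 0.10).

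The authors' deposited tables of gene ontology terms hold some of these genes. In the authors' deposited table for genes lower in untreated knockout cells, regulation of lipid metabolic process counted 104 of 3405 listed genes, with an adjusted p of 0.0201 by the authors, and 9 were from the 29: SREBF1, SCD, SQLE, FADS1, TM7SF2, LSS, FASN, INSIG1 and SREBF2. In the authors' deposited table for treated cells the same term counted 126 of 4413 listed genes, with an adjusted p of 0.0573 by the authors, and 12 of the 29, with CYP51A1, PMVK and DHCR7 added. In the authors' deposited tables for treatment in wild type cells the lipid terms were lipid binding and membrane lipid catabolic process, which held 0 of the 29. Their adjusted p by the authors was 0.0817 and 0.0942, above 0.05. The authors' deposited table for genes lower in untreated knockout cells held 8 lipid terms. Those besides regulation of lipid metabolic process held at most 1 of the 29 each.

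Several genes lie over other counted genes, and whether counting used strand is not stated. On GRCh38, SREBF1 (chr17:17810399-17837002) shares 556 exon bases with RAI1 on the other strand, and TM7SF2 (chr11:65111845-65116384) shares 16 with VPS51. FDPS shares 693 with RUSC1-AS1, ACAT2 397 with TCP1, FADS1 490 with FADS2, MVK 306 with MMAB, FDFT1 217 with a lincRNA and CYP51A1 138 with an antisense RNA, so some reads of these genes may belong to a neighbour. EBP (chrX:48521158-48528716), SQLE (chr8:124998497-125022283), SCD (chr10:100347124-100364834) and FASN (chr17:82078333-82098332) overlap no counted gene in that annotation. No other counted gene repeated the counts of any of the 29 across the 12 libraries.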

How the data were processed

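RNA-seq of 12 HaCaT libraries was analysed. The authors deposited raw read counts per gene, CPM (counts per 1000000 counts of the library), and gene ontology tables with p-values and, as other values, the number of listed genes per term, per the file headers. The submitters' processing notes name BWA 0.5.9 and mm9, a mouse build, but the gene IDs are human. The sources used here do not state the build, annotation, counting tool or strand setting behind the counts.

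Counts were tested with edgeR 4.0.16 in R 4.3.3: TMM scaling, filterByExpr (14676 of 16271 genes), and quasi-likelihood F tests (robust option) fitted across the 12 libraries. P-values were adjusted by Benjamini-Hochberg over all genes in each of 5 comparisons, and calls had an adjusted p below 0.05. SE is the size of the log2 fold change over the square root of F. Alternatives were other scalings and filters, DESeq2 1.42.0, limma 3.58.1 on log2 of the deposited CPM plus 1, the compared groups alone, the replicate block, and each library left out. The script was tested on simulated data. Positions and exon lengths are those of GENCODE v29.

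The genes, lists, tests and naming rule were chosen with earlier results of these data known. Values per library are given for up to 6 called genes per comparison with the smallest adjusted p, and for DHCR7, INSIG1, SREBF1 and SREBF2, and examples beyond these were chosen after their values were seen. Of the other pathway genes, the 3 called each way with the smallest adjusted p are named, except 1 that is not reported here.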

Additional observations from a re-analysis of the deposited data

Results flagged for a closer look

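Of the 29 genes, 6 responded differently to the hormone in the 2 genotypes by the test of the difference itself (edgeR quasi-likelihood, adjusted p below 0.05). This share was no larger than the 26.3% called among all genes tested. The knockout response minus the wild type response was -1.04 for EBP, -0.63 for SREBF1, -0.59 for TM7SF2, -0.54 for SCD and -0.49 for SQLE on the log2 scale, and 0.37 for ACACA. The wild type and knockout responses behind them were 0.63 and -0.41 for EBP, 0.25 and -0.38 for SREBF1, 0.41 and -0.19 for TM7SF2, 0.01 and -0.53 for SCD, 0.54 and 0.05 for SQLE, and -0.20 and 0.17 for ACACA. In SREBF1 the 2 responses each passed, in opposite directions.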

How the results depend on the processing

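Counts of the 29 genes higher and lower stayed within 1.5 times under other scalings, filters and tools, with these exceptions. In wild type treatment 5 rose and 2 fell, but with the compared groups alone 3 rose and 0 fell, and 1 fell with library size alone, without the filter, or with the replicate block. Leaving out 1 library gave 3 to 5 risen (3 without treated replicate 2 or 3) and 0 to 3 fallen (0 without treated replicate 1 or 2, 3 without untreated replicate 2). In knockout treatment 2 fell, 1 with the replicate block and 0 to 2 with 1 library left out (0 without untreated replicate 1 or treated replicate 2 or 3). For the difference of responses 1 to 2 were higher and 3 to 8 lower with 1 library left out (8 without untreated wild type replicate 3, 3 without treated wild type replicate 1, and MSMO1 joined ACACA without untreated wild type replicate 2). SCD in wild type treatment (0.01) ranged from -0.056 to 0.104 with 1 library left out and was below 0 without untreated replicate 1 (-0.02) or 3 (-0.03) or treated replicate 1, and SQLE in knockout treatment (0.05) ranged from -0.056 to 0.132 and was below 0 without untreated replicate 3 (-0.03) or treated replicate 2. The cause was not tested. Counts over all genes moved more. In knockout treatment 134 were higher and 240 lower, against 399 and 508 with DESeq2, 833 and 942 with the compared groups alone, 37 and 106 with the replicate block, 98 and 392 with library size alone, 96 and 369 with limma, and 0 to 66 higher and 8 to 212 lower with 1 library left out. In wild type treatment 1688 and 1914 became 1092 and 1126 with the compared groups alone, 1119 and 1273 without treated replicate 1, and 1010 and 1102 without treated replicate 3. With library size alone 20%, and with limma 20.6%, instead of 35.8% of all genes called in knockout treatment were higher, and 11 instead of 8 of the 29 genes were higher in treated knockout against wild type cells, or 12 with limma. Same-numbered libraries correlated at -0.143 to 0.161, and the main fit did not pair them. In the untreated genotype comparison each correlated best with its own number (0.0475, 0.122 and 0.161). Whether the numbers mark pairs there is not settled. With the replicate block 10 and 13 genes were called in the untreated genotype comparison, 8 and 14 in the treated one, and 1 and 5 for the difference, as without it. Over single genes, 137 of 168 values in wild type treatment, 127 of 140 in knockout treatment, 321 of 336 and 302 of 308 in the genotype comparisons and 158 of 171 for the difference kept their direction and side of the threshold. The lowest counts among the 29 genes were those of HSD17B7, down to 40 in a library.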
